A study of Mus musculus and Homo sapiens with 9 samples.

Results

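Distal intergenic CUT&Tag peaks were examined in 9 peak lists from mouse and human cells. A peak was a member when its interval touched no gene of any type and its midpoint lay over 10 kb from every annotated transcription start site (TSS), with GENCODE M21 for the mouse build mm10 and GENCODE 44 for the human build hg38, and when it was on an assembled chromosome. The rule found 17971 members among 102544 peaks, of which 7897 of 44427 were in 5 lists from mouse embryonic fibroblasts (MEFs) and 10074 of 58117 were in 4 lists from HEK293 cells. The rule used position only, so the strength, sequence and sharing of the members were not part of their choice. CUT&Tag uses an antibody to bring a transposase to its target, and the tagged DNA is sequenced. R-loops were mapped with S9.6, which recognizes hybrids of RNA and DNA, and anti-FLAG served for FLAG-tagged MCM8, a helicase of the MCM family.

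The Mcm8 WT and Mcm8 KO MEFs came from E13.5 embryos of a mixed C57BL/6J and ICR background, and the KO allele lacked exon 7 of Mcm8. The study's MEFs were immortalized with SV40 large T antigen. The shDdx5 MEFs carried an shRNA against Ddx5, which encodes an RNA helicase, delivered by adenovirus, and the shControl MEFs were their control. These 4 MEF libraries were made with S9.6, and the fifth MEF library had no primary antibody. HEK293, a human embryonic kidney line, gave a mouse IgG library, an anti-FLAG library after transfection with FLAG-MCM8, an S9.6 library, and an S9.6 library labelled RNH1, which the study uses for RNase H1, a nuclease that cuts RNA paired with DNA. Each group had 1 library, so no p-value was computed, and each interval below is a 95% interval that covers counting error only. A difference beyond it compares 2 libraries and not the conditions. Peak lists measure no expression, so the labelled cells could not be checked against marker genes.

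The lists differed in depth. The fragment density recovered from the peaks was 5729 to 7001 per Mb in the MEF lists made with S9.6, 719.8 per Mb in the no-antibody list and 8314 to 11050 per Mb in the HEK293 lists. These densities are relative, since the fragment length was taken from the shortest peak. The largest p was 0.001 among MEF peaks and 1e-05 among HEK293 peaks, so mouse and human lists were not compared.

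R-loops form where a transcript pairs with its template strand, and they are best known at promoters, at transcription ends and in ribosomal DNA. DNA far from annotated genes holds enhancers, which can be transcribed into short unstable RNAs, as well as unannotated transcripts and long stretches of repeats. Active enhancers of fibroblasts are often bound by AP-1, a dimer of FOS and JUN family factors that recognizes the letters TGANTCA. Minisatellites are tandem arrays of short units, many of them near chromosome ends. Short-read peak calling in such arrays depends on how many copies the reference holds.

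The 3 strongest members were the same loci in the KO, WT, shControl and shDdx5 lists, and their summits are shown because they outrank all other members of these lists. Each sequence is the KO summit with 50 bases on either side, from mm10, plus strand, with the 31 bases at the summit in capitals. They lay at chr2:181917735-181917835, chr3:5860644-5860744 and chr11:54140089-54140189.
Gm5466 locus: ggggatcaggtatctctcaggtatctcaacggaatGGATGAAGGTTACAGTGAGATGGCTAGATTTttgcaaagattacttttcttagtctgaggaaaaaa
Gm25352 locus: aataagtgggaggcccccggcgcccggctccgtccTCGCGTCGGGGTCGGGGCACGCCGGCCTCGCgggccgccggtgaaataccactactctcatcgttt
P4ha2 locus: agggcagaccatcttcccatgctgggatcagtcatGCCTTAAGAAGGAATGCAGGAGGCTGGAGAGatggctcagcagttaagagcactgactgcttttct
Loci are named by the gene with the nearest TSS, which says nothing of which gene they act on. Each of these 31-base words occurred once in mm10. The window near Gm25352, an annotated miRNA, had a GC content of 70.3% and 15 CpG sites, against 39.6% and 1 CpG near the pseudogene Gm5466. A unique word does not place a summit outside repeats. In a window wider than the one printed, soft-masked repeats made up 69.15% of the bases around the KO summit near P4ha2. The shares were 25.87% near Gm5466 and 12.44% near Gm25352. Of the 455 20-base words of the KO peak near Gm25352, 316 (69.5%) also occurred in the unplaced human contig that holds a ribosomal RNA gene unit, against 0 of 709 near Gm5466 and 3 of 602 near P4ha2, which encodes a subunit of the collagen prolyl 4-hydroxylase. This comparison was chosen after the sequence was seen. It was the only one of the 1501 KO members with over 50% of its words shared. Whether reads from ribosomal DNA account for its height was not tested.

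The 3 motifs searched were AP-1, TEAD and CTCF. Only AP-1 was more frequent at recurrent than at single-list members beyond counting error in each of the 4 S9.6 MEF lists. TEAD was also higher at recurrent members in each list, but beyond counting error in KO only. So 3 recurrent loci with an AP-1 match are shown, from mm10, plus strand. Each has 100 bases on either side of the summit, with each TGANTCA match in capitals. The first, at chr14:46172416-46172616, was in the KO and shDdx5 lists, and the others, at chr15:59759734-59759934 and chr11:103312141-103312341, were in all 4 S9.6 lists and not in the no-antibody list. The last 2 were chosen after their values were seen.
Gm1821 locus: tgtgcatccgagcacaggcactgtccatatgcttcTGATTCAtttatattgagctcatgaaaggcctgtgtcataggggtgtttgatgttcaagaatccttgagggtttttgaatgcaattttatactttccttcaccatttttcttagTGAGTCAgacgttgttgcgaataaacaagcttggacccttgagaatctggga
Gm19510 locus: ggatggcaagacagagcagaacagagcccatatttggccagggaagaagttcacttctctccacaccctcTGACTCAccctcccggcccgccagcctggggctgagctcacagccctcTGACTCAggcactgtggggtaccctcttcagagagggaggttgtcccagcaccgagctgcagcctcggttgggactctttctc
Arhgap27 locus: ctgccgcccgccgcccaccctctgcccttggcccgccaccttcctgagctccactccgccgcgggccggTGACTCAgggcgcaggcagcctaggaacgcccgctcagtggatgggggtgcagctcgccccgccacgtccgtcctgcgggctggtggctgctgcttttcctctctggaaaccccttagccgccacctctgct
The first 2 windows held 2 matches each and the third held 1.

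In HEK293 tandem repeats were far more frequent among the 20 strongest members of a list than among those below rank 500, and 4 strong loci in repeats are shown. The next windows are from hg38, plus strand, centred on the summit of the strongest peak, with the case changing at a fixed step of 1 period counted from the first base, which need not fall on a unit boundary. They lay at chr16:1025344-1025464, chr1:236097174-236097294, chr20:49617598-49617718 and chr9:134014237-134014357, with periods of 24, 29, 33 and 24 bases. A period is the shortest step at which at least 80% of the bases match, so the blocks need not be identical. In the PTGIS window the third block differs from those before it.
ENSG00000260496 locus: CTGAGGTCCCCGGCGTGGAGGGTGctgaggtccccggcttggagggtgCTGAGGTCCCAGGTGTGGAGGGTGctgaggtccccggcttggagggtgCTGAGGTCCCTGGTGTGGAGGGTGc
ENSG00000235371 locus: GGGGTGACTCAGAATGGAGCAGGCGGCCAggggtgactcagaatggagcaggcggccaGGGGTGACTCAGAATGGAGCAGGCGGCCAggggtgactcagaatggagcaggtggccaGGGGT
PTGIS locus: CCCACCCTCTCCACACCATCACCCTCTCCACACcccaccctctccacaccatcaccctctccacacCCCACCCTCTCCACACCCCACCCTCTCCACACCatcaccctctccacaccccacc
BRD3OS locus: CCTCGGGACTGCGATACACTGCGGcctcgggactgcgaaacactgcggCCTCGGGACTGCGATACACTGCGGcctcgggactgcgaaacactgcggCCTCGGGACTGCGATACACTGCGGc
PTGIS encodes prostacyclin synthase. The unit near ENSG00000235371 also holds the letters of an AP-1 match.

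CA repeats stood in 10.4% of the members found without antibody, and 1 is shown because these repeats were rarer in the members made with S9.6. The strongest such member, outside the chromosomes whose sequence is not printed here, lay at chr3:159053020-159053220 near Gm20752. It is shown with 100 bases on either side of the summit, from mm10, plus strand, with the repeat of CA on the opposite strand in capitals.
Gm20752 locus: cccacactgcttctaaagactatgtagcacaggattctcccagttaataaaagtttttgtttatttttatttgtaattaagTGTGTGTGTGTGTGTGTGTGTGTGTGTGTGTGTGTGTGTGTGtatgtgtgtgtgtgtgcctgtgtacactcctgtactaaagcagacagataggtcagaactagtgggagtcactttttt

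Distal intergenic peaks were the smaller part of every list, and their share was lowest in the lists made with S9.6. In MEFs they made up 14.3% of the WT list (928 of 6481, Wilson interval 13.5% to 15.2%), 15.6% of the KO list (1501 of 9605, 14.9% to 16.4%), 19.5% of the shControl list (2388 of 12259, 18.8% to 20.2%) and 13.6% of the shDdx5 list (1595 of 11768, 12.9% to 14.2%). Without antibody they made up 34.4% (1485 of 4314, 33.0% to 35.9%). The rule selects 39.1% of the assembled bases of mm10, so the no-antibody share was 0.881 times the share of bases and the S9.6 shares were 0.347 to 0.498 times it.

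In HEK293, members made up 10.7% of the S9.6 list (1618 of 15147, 10.2% to 11.2%) and 10.4% of the list labelled RNH1 (1302 of 12497, 9.90% to 11.0%). They made up 20.2% of the FLAG-MCM8 list (2691 of 13295, 19.6% to 20.9%) and 26.0% of the IgG list (4463 of 17178, 25.3% to 26.6%). The rule selects 29.2% of the assembled bases of hg38. The IgG share was thus 0.889 times the share of bases, the FLAG-MCM8 share 0.692 times it, and the S9.6 and labelled RNH1 shares 0.365 and 0.356 times it.

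**Figure D1:**
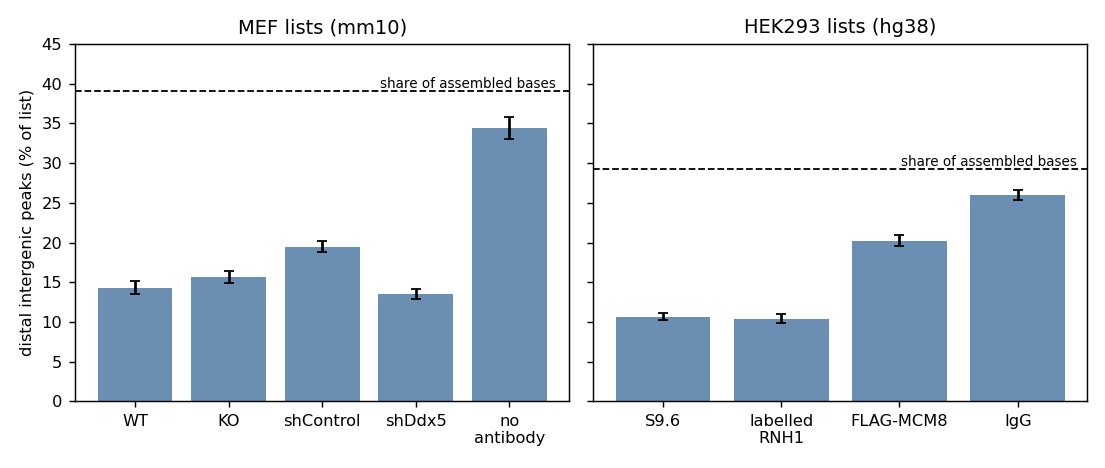
Share of each peak list that was distal intergenic, in percent, for 5 MEF lists and 4 HEK293 lists with 1 library each. Bars are shares with 95% Wilson intervals, and the dashed lines mark the share of assembled bases that the rule selects (39.1% of mm10 and 29.2% of hg38). The 2 control lists stand closest to the lines.

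Most members were not remote. The median distance to the nearest TSS was 25.5 kb in KO, 24.3 kb in WT, 26.8 kb in shControl and 25.3 kb in shDdx5, against 37.0 kb without antibody. It was 24.0 kb in S9.6, 23.7 kb in the list labelled RNH1, 31.4 kb in FLAG-MCM8 and 37.4 kb in IgG. Members over 100 kb from any TSS made up 5.71% to 7.62% in the MEF lists made with S9.6 and 16.6% without antibody.

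At the threshold, KO had 55 members between 10 and 11 kb from a TSS with a median fold of 3.47, and 75 intergenic peaks just outside, between 9 and 10 kb, with a median fold of 3.47. S9.6 in HEK293 had 87 members just inside with a median fold of 4.26 and 93 peaks just outside with 4.20. The median fold was 3.63 just inside and 3.37 just outside in WT, and 4.62 and 4.95 in FLAG-MCM8. The mean GC content was 46.4% just inside and 48.8% just outside in WT, 47.1% and 49.7% in KO, and 48.1% and 50.6% in FLAG-MCM8. A second annotation put part of the mouse members inside genes. In RefSeq genes of the same build lay 148 of 928 WT members (15.9%), 216 of 1501 KO members (14.4%), 297 of 2388 shControl members (12.4%), 222 of 1595 shDdx5 members (13.9%) and 162 of 1485 no-antibody members (10.9%).

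Members were about as enriched as other peaks but fewer reached a strict q. The fold is the pileup of fragments at the summit over the local background. Its median was 3.56 in WT members and 3.56 in the other WT peaks, 3.47 and 3.54 in KO, 3.27 and 3.43 in shControl, 3.42 and 3.58 in shDdx5, and 3.36 and 3.36 without antibody. The medians rest on few fragments, since the median pileup at a member's summit was 8 or 9 in the MEF lists made with S9.6 and 3 without antibody. In WT, 213 of 928 members (23%) had a q of 0.05 or lower, where 32.7% of all WT peaks did. In KO, 344 of 1501 members (22.9%) did, where 36.1% of all KO peaks did. In shControl, 458 of 2388 members (19.2%) did, where 28.1% of all its peaks did. In shDdx5, 791 of 1595 members (49.6%) did, where 60.5% of all its peaks did. Without antibody 134 of 1485 members (9.02%) did, where 8.76% of all peaks did, so only there was the share of members not below the share of the list. All HEK293 peaks had such a q, and the median fold of members was 4.33 in S9.6, 4.32 in the list labelled RNH1, 4.64 in FLAG-MCM8 and 4.16 in IgG, against 4.32, 4.16, 4.65 and 4.15 in the other peaks.

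The first comparison asks how loss of MCM8 relates to R-loop peaks, here far from genes. The KO list held 1501 members and the WT list 928, a ratio of 1.62 (Poisson interval 1.49 to 1.76). The other peaks of the same lists gave 1.46 (1.41 to 1.51), so the ratio for members was 1.11 times that for other peaks (1.01 to 1.21). With q limited to 0.05 the KO list held 344 members and the WT list 213, again a ratio of 1.62 (1.36 to 1.92), but other peaks then gave 1.64 (1.55 to 1.74) and the members' ratio was 0.984 times theirs (0.821 to 1.18). The excess of members in KO therefore exceeded counting error, while its difference from the other peaks did not at the stricter q. The recovered densities were 5729 fragments per Mb in KO and 6490 in WT. They are relative, and the part that depth plays in the ratio was not tested.

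The second comparison asks the same of DDX5 knockdown. The shDdx5 list held 1595 members and the shControl list 2388, a ratio of 0.668 (0.627 to 0.712), while the other peaks gave 1.03 (1.00 to 1.06). The members' ratio was 0.648 times that of the other peaks (0.605 to 0.695). The direction turned with a limit on q. A q is worked out within each list, so the same q need not be the same cutoff in 2 lists. Of all peaks, 60.5% in shDdx5 and 28.1% in shControl had a q of 0.05 or lower. At a q of 0.05 or lower shDdx5 held 791 members and shControl 458, a ratio of 1.73 (1.54 to 1.94), and at a q of 0.01 or lower the ratio was 2.12. At either q the shDdx5 list had more members, and at a q of 0.05 or lower the members' ratio was still below that of the other peaks, 0.814 times it (0.720 to 0.921). At a fold of at least 4, shDdx5 held 325 members and shControl 384, a ratio of 0.846 (0.730 to 0.981).

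Both directions held along the genome at the deposited threshold. The KO to WT ratio of members was above 1 on 19 of 19 autosomes, from 1.04 on chromosome 15 to 2.52 on chromosome 14, and its interval lay above 1 on 15 of them. The shDdx5 to shControl ratio was below 1 on 19 of 19 autosomes, from 0.570 on chromosome 6 to 0.980 on chromosome 2, with 15 intervals below 1. It was below the ratio of other peaks on 18 autosomes, while the KO to WT ratio was above that of other peaks on 13. Chromosomes of 1 library are not replicates. The X chromosome held 3 WT members and 3 KO members, against 49 in shControl, 29 in shDdx5 and 46 without antibody. These were 0.323% of WT members, 0.200% of KO members, 2.05% of shControl members, 1.82% of shDdx5 members and 3.10% of members without antibody. Of the other peaks 0.522%, 0.605%, 1.40%, 1.11% and 2.30% lay on X, so the low share in the Mcm8 pair was not limited to members.

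**Figure D2:**
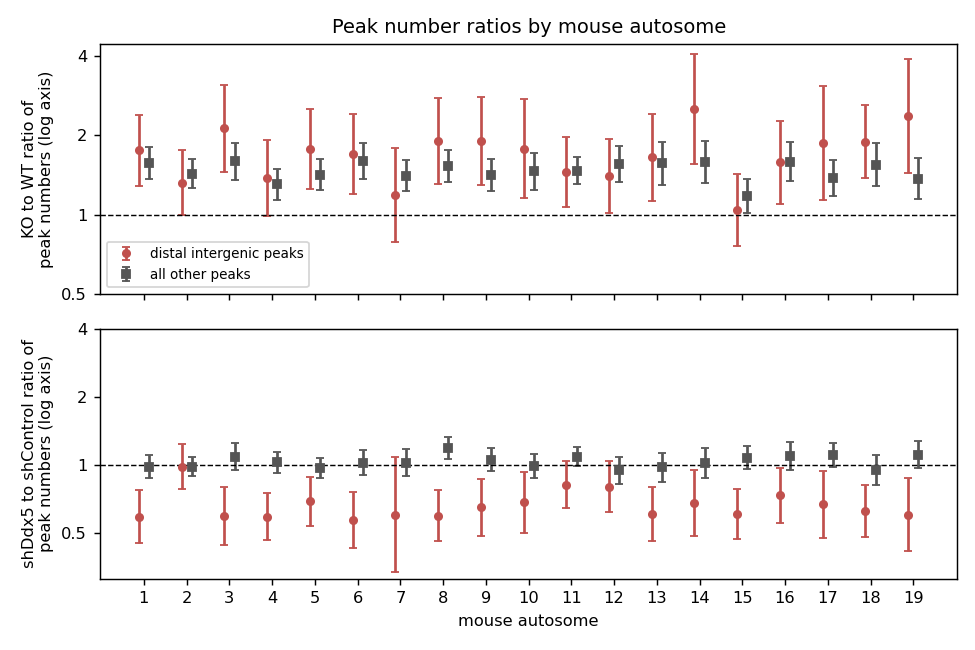
Ratio of peak numbers on each mouse autosome, KO to WT above and shDdx5 to shControl below, on a log axis, for distal intergenic peaks (circles) and all other peaks (squares), with 95% Poisson intervals from 1 library per group. Members lie above 1 on all 19 autosomes in the upper panel and below 1 on all 19 in the lower panel.

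Within the pairs KO and WT, shDdx5 and shControl, and S9.6 and the list labelled RNH1, members recurred less often than other peaks, and no such difference was seen against peaks inside genes that were also over 10 kb from a TSS in KO, shDdx5 and S9.6. In KO, 109 of 1501 members (7.26%) overlapped a WT peak by at least 1 bp, against 18.2% of the other KO peaks and 16.5% of all KO peaks, a difference between members and other peaks of -10.9 percentage points (-12.4 to -9.29). Of the 1747 KO peaks in genes and over 10 kb from a TSS, 6.58% did, and members differed from them by 0.679 points (-1.07 to 2.46). In WT, 110 of 928 members (11.9%) overlapped a KO peak, where 24.5% of all WT peaks did.

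In shDdx5, 152 of 1595 members (9.53%) overlapped a shControl peak, where 20.2% of all its peaks did, and members differed from other peaks by -12.3 points (-13.9 to -10.6). In shControl, 151 of 2388 members (6.32%) overlapped a shDdx5 peak, where 19.4% of all its peaks did. In HEK293, 258 of 1618 S9.6 members (15.9%) overlapped a peak labelled RNH1, where 28.9% of all S9.6 peaks did, and members differed from other peaks by -14.5 points (-16.4 to -12.5). Members differed from peaks inside genes over 10 kb from a TSS by 0.459 points in shDdx5 (-1.48 to 2.43) and by 1.90 points in S9.6 (-0.397 to 4.24). In the other direction 263 of 1302 members of the list labelled RNH1 (20.2%) overlapped an S9.6 peak, where 35.1% of all its peaks did, and they exceeded its peaks inside genes over 10 kb from a TSS by 2.86 points (0.0366 to 5.71).

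Recurrence rose with strength in members as in other peaks. When each list was split by p into 4 classes of about equal size, 1.84% of the KO members in the weakest class and 26.1% of those in the strongest overlapped a WT peak, against 4.67% and 43.7% of other peaks. In the strongest class members still differed from other peaks, by -17.6 points in KO (-23.3 to -11.2), by -20.8 points in shDdx5 against shControl (-26.9 to -13.9) and by -12.5 points in S9.6 against the list labelled RNH1 (-19.2 to -5.85). In that class 51.8% of the S9.6 members had a peak labelled RNH1.

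**Figure D3:**
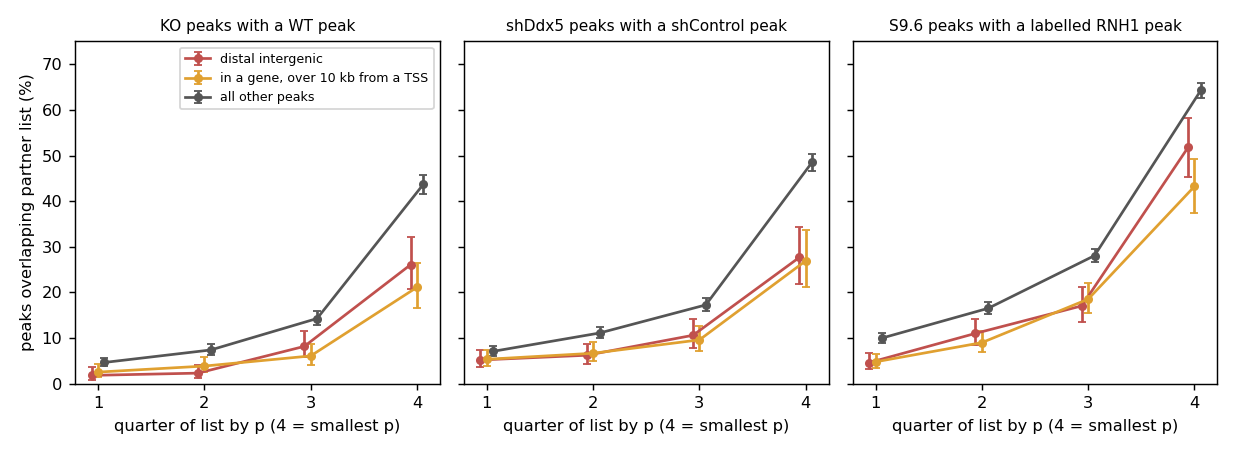
Share of peaks that overlap a peak of the partner list, in percent, in 4 classes of about equal size from the largest p (1) to the smallest p (4), for KO against WT, shDdx5 against shControl and S9.6 against the list labelled RNH1. Points are shares with 95% Wilson intervals from 1 library per list. Distal intergenic peaks run close to peaks in genes over 10 kb from a TSS and below all other peaks, reaching 26.1%, 27.7% and 51.8% in the strongest class.

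AP-1 letters were more frequent at MEF members made with S9.6 than in the territory they came from. Within 100 bases of the summit TGANTCA, which reads the same on both strands, was found in 11.5% of WT members, 12.2% of KO members, 8.21% of shControl members and 11.0% of shDdx5 members, against 6.14% of 20741 windows of the same length set every 50 kb in the territory the rule selects. The differences from the windows were 6.05 points in KO (4.45 to 7.83), 5.39 in WT (3.46 to 7.63), 2.07 in shControl (0.978 to 3.28) and 4.89 in shDdx5 (3.41 to 6.56). Members without antibody held a match in 6.33%, which differed from the windows by 0.188 points (-0.990 to 1.58). Other peaks of the S9.6 lists held one in 6.44% to 7.95%, fewer than members in each of the 4 lists beyond counting error. Peaks in genes over 10 kb from a TSS held one in 7.96% to 11.2%, and members differed from them by 1.41 points in WT (-1.30 to 4.18), 2.0 points in KO (-0.166 to 4.20), 0.248 points in shControl (-1.29 to 1.79) and -0.155 points in shDdx5 (-2.25 to 1.97). Read over whole peaks, AP-1 letters were in 18.2% of WT, 18.5% of KO, 10.8% of shControl, 17.4% of shDdx5 and 13.1% of no-antibody members. On that reading shControl stood below the no-antibody list. Whole peaks differ in width, with a median of 281 bases in shControl members and 366 in no-antibody members, and were not compared with windows.

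Members shared between S9.6 lists carried AP-1 letters more often than members found in 1 list only. A shared member recurs by definition in another list, so the differences of the 4 lists are not independent. In WT, 46 of 209 shared members (22.0%) had a match against 61 of 719 others (8.48%), a difference of 13.5 points (7.96 to 19.9). In KO, 54 of 248 (21.8%) had one against 129 of 1253 (10.3%), a difference of 11.5 points (6.46 to 17.2). In shControl the shares were 13.8% and 7.5%, a difference of 6.31 points (2.49 to 11.1), and in shDdx5 15.3% and 10.1%, a difference of 5.18 points (1.05 to 10.1). The same held for peaks inside genes over 10 kb from a TSS, with differences of 6.89 to 12.4 points, so this was not particular to intergenic DNA. For TEAD the difference between shared and single-list members was 5.05 points in KO (0.421 to 10.5), and its interval held 0 in WT, shControl and shDdx5, as did that for CTCF in all 4 lists. With strength the share rose from 6.72% in the weakest class to 18.8% in the strongest in WT, a difference of 12.1 points (5.35 to 19.5), and from 8.53% to 20% in KO, a difference of 11.5 points (5.93 to 17.6). In shDdx5 the difference was 7.57 points (2.1 to 13.9), in shControl 0.447 points (-2.89 to 4.08) and without antibody 0.423 points (-3.12 to 3.8).

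**Figure D4:**
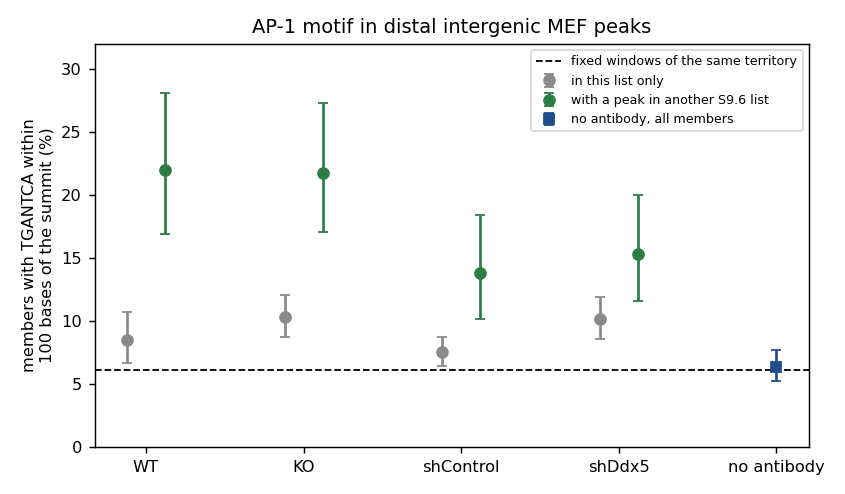
Share of distal intergenic MEF peaks with the letters TGANTCA within 100 bases of the summit, in percent, for members found in 1 S9.6 list only and members that overlap a peak of another S9.6 list, beside all no-antibody members. Points are shares with 95% Wilson intervals from 1 library per list, and the dashed line is the share in fixed windows (6.14%). Shared members lie highest in each list, from 13.8% in shControl to 22.0% in WT.

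In GC content, CpG-rich windows and G runs, members stood below the other peaks of their lists, which include those near a TSS, and close to peaks in genes over 10 kb from a TSS. The GC content within 100 bases of the summit averaged 47.1% to 48.3% in MEF members made with S9.6, against 47.6% to 48.5% in peaks in genes over 10 kb from a TSS, 52.5% to 56.0% in all other peaks, 41.9% in members without antibody and 40.2% in the windows. CpG-rich windows, with a GC of at least 50% and an observed to expected CpG ratio of at least 0.6, made up 1.51% to 2.13% of these members, 0.606% to 1.01% of peaks in genes over 10 kb from a TSS and 18.6% to 33.2% of all other peaks. Members exceeded those in genes by 0.901 to 1.32 points, beyond counting error in KO, shControl and shDdx5. A pattern of 4 runs of at least 3 G with 1 to 7 bases between them, read on both strands, was present in 3.23% to 3.82% of members, 2.29% to 4.35% of peaks in genes over 10 kb from a TSS and 8.08% to 11.9% of all other peaks, where 3.20% of the windows had it. In KO, members exceeded those in genes by 1.38 points (0.207 to 2.61), while in WT, shControl and shDdx5 the interval held 0. The CTCF letters (CCA, any 2 bases, AG, any 2 bases and GGC, read on both strands) were in 1.47% to 2.19% of members and 0.733% of windows, and the interval of the difference lay above 0 in each of the 4 lists, while other peaks held them in 1.41% to 2.07%, which members did not differ from beyond counting error. Against peaks in genes over 10 kb from a TSS, members held CTCF letters more often in WT, by 1.13 points (0.068 to 2.33). The same difference was 1.13 points in KO (0.336 to 2.02), and in shControl and shDdx5 its interval held 0. CTCF is the factor that anchors chromatin loops, and most of the fixed letters searched for it are G or C. The windows were not matched to the members in GC content. The part that GC content plays in the difference from the windows was not tested. The TEAD letters GGAATG were in 10.6% to 13.2% of members and 11.0% of windows. Members exceeded the windows by 2.11 points in KO (0.441 to 3.96) and 2.15 points in shDdx5 (0.524 to 3.95) and other peaks by 2.43 points (0.670 to 4.34) and 3.38 points (1.71 to 5.22), while in WT and shControl both intervals held 0.

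MEF members made with S9.6 lay mostly in sequence found once in the reference. The 31 bases at the summit occurred more than once in the reference in 2.93% to 4.61% of them, against 1.42% to 2.63% of other peaks, 12.5% of members without antibody and 24.8% of the windows. Soft-masked repeats made up 23.4% to 27.0% of their bases, against 31.6% without antibody and 43.2% in the windows. CA repeats of at least 10 units stood in 10.4% of members without antibody (154 of 1485) and 10.1% of the other peaks of that list, in 1.62% to 3.85% of members made with S9.6 and in 1.80% of the windows. Of the 134 no-antibody members with a q of 0.05 or lower, 42 held a CA repeat.

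Merged across lists, the MEF members formed 7292 loci, of which 5841 were in a list made with S9.6. A locus was counted in a list when any peak of that list overlapped it. Of these, 5404 were in exactly 1 S9.6 list, 331 in 2, 75 in 3 and 31 in all 4. Of the 31, 27 had no peak without antibody and 4 had one.

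The strongest of these had similar folds in all 4 lists. At chr2:181917429-181918349, 21 kb from the TSS of Gm5466, the fold was 23.7 in WT, 23.1 in KO, 21.7 in shControl, 21.1 in shDdx5 and 8.83 without antibody, where it was the strongest member as well. Its presence without antibody sets it apart from the next locus. At chr3:5860346-5860838, 20.5 kb from Gm25352, the fold was 20.9 in KO, 17.9 in WT, 17.1 in shControl and 17.6 in shDdx5, with no peak without antibody. At chr11:54140029-54140649, 12.6 kb from P4ha2, it was 20.3 in KO, 18.3 in WT, 18.2 in shControl and 14.9 in shDdx5, again with no peak without antibody.

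The other loci of all 4 S9.6 lists that the naming rule gave were weaker. At chr18:3005652-3005996 the fold was 8.0 in KO, 11.6 in WT, 8.69 in shControl and 5.98 in shDdx5, and the WT and KO peaks there had midpoints just inside 10 kb of a TSS and were not members themselves. At chr9:54802588-54803560, near the pseudogene Rab7-ps1, it was 6.0 in KO, 4.83 in WT, 4.88 in shControl and 5.56 in shDdx5. At chr16:13759546-13760457, 20.7 kb from Rrn3, which encodes an initiation factor of RNA polymerase I, it was 4.56 in KO, 4.74 in WT, 6.39 in shControl and 4.83 in shDdx5, and its summit lay in a tandem repeat with a period of 76 bases. A locus at chr12:85454994-85455676, 18.5 kb from Fos, which encodes an AP-1 subunit, was in all 5 lists with folds of 3.67 in WT, 3.89 in KO, 4.22 in shControl, 4.52 in shDdx5 and 3.23 without antibody, and it was named after its values were seen. It held no AP-1 match.

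KO and shDdx5 shared 63 loci that were in none of the other 3 MEF lists, of which 12 (19.0%) held an AP-1 match. Other recurrent loci had similar shares. Of the 27 loci in all 4 S9.6 lists and not without antibody, 6 (22.2%) held one. So did 21.8% of all shared KO members and 15.3% of all shared shDdx5 members. The strongest of the 63 was at chr8:128165059-128165382, 113 kb from Mir21c, with a fold of 5.37 in KO and 4.87 in shDdx5, and it held a match. The next was at chr10:93138460-93138879, 22.2 kb from Cdk17, a cyclin-dependent kinase gene, with folds of 4.47 and 4.79. The third was at chr14:46172432-46172807, 88.4 kb from Gm1821, with folds of 4.93 and 4.22, and is the first AP-1 window printed above. Next in order came a locus at chr12:85485875-85486334, 11.2 kb from Fos, with folds of 4.16 and 3.51. It lay beyond the naming rule, was picked with its values known and held no AP-1 match. Absence from a list means no peak at the deposited threshold and not an absence of signal. For scale, 87 loci were in shControl and shDdx5 only, 59 in KO and shControl only and 38 in WT and KO only.

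In HEK293, the list labelled RNH1 was compared with S9.6 to ask what RNase H1 does to the peaks. It held 1302 members against 1618, a ratio of 0.805 (0.748 to 0.866). The other peaks gave 0.828 (0.807 to 0.849), and the members' ratio was 0.972 times theirs (0.900 to 1.05), so members and other peaks were not told apart. The recovered densities of these libraries were 11050 and 10390 fragments per Mb.

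FLAG-MCM8 members overlapped S9.6 peaks more often than IgG members did, but less often than the other FLAG-MCM8 peaks as a whole. Of 2691 FLAG-MCM8 members 168 (6.24%) overlapped an S9.6 peak, where 13.5% of all FLAG-MCM8 peaks did. They differed from FLAG-MCM8 peaks in genes over 10 kb from a TSS by 0.693 points (-0.520 to 1.93). Of 4463 IgG members 126 (2.82%) did, where 4.83% of all IgG peaks did. The difference between the lists was 3.42 points for members (2.42 to 4.50) and 9.81 points for other peaks (9.03 to 10.6). Without the FLAG-MCM8 peaks that overlapped an IgG peak the difference for members was 1.64 points (0.733 to 2.62), and over 50 kb from every TSS it was 1.49 points (0.307 to 2.94). Of the 135 FLAG-MCM8 members that overlapped an IgG peak 40% also overlapped an S9.6 peak, against 4.46% of the 2556 that did not, a difference of -35.5 points for members without an IgG peak (-44.0 to -27.6). Among other FLAG-MCM8 peaks the shares were 48.6% and 13.6%.

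Overlap with the IgG list was higher for S9.6 members than for other S9.6 peaks, but not beyond counting error than for S9.6 peaks in genes over 10 kb from a TSS. Of 1618 S9.6 members 127 (7.85%) overlapped an IgG peak, where 5.49% of all S9.6 peaks did, and members differed from other peaks by 2.65 points (1.37 to 4.10). In the list labelled RNH1, 129 of 1302 members (9.91%) did, where 6.63% of all its peaks did, a difference of 3.66 points (2.09 to 5.46). Against peaks in genes over 10 kb from a TSS the differences were 0.662 points in S9.6 (-1.03 to 2.41) and 1.48 points in the list labelled RNH1 (-0.602 to 3.61). In FLAG-MCM8, 135 of 2691 members (5.02%) did, where 5.01% of all its peaks did. In MEFs few members overlapped a no-antibody peak. These were 7 of 928 in WT, where 1.23% of all peaks did, 16 of 1501 in KO, where 1.15% did, 12 of 2388 in shControl, where 0.832% did, and 14 of 1595 in shDdx5, where 1.06% did. The no-antibody library was the shallowest, so a missing overlap there says little.

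Tandem repeats were concentrated among the strongest HEK293 members. A member was placed in one when, for some period of at most 100 bases, at least 80% of the bases within 100 bases of the summit matched the base one period on. This held for 69 of 1618 S9.6 members (4.26%), 70 of 1302 members labelled RNH1 (5.38%), 60 of 2691 FLAG-MCM8 members (2.23%) and 38 of 4463 IgG members (0.851%). In S9.6 and the list labelled RNH1 members exceeded other peaks by 2.28 points (1.36 to 3.40) and 2.70 points (1.55 to 4.09). Peaks in genes over 10 kb from a TSS had shares of 3.83% and 5.32%, and members differed from them by 0.435 points (-0.828 to 1.76) and 0.0534 points (-1.56 to 1.73). The median period was 33.5 to 36 bases long. In the MEF lists 0 to 9 members were placed in such repeats.

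By rank, 10 of the 20 strongest S9.6 members lay in a tandem repeat, 11 of 20 in the list labelled RNH1, 12 of 20 in FLAG-MCM8 and 6 of 20 in IgG. Below rank 500 the shares were 2.33%, 2.0%, 1.05% and 0.479%. Members in tandem repeats recurred more often than the rest. Of the S9.6 members in a repeat 52.2% overlapped a peak labelled RNH1 and 27.5% an IgG peak, against 14.3% and 6.97% of the other S9.6 members. Of the FLAG-MCM8 members in a repeat 48.3% overlapped an S9.6 peak and 30% an IgG peak, against 5.28% and 4.45% of the others. Strength was not held fixed in these comparisons. In the strongest class by p, 51.8% of all S9.6 members overlapped a peak labelled RNH1, close to the share in repeats. In that class 13.8% of all FLAG-MCM8 members overlapped an S9.6 peak, below the share in repeats. Of the S9.6 members in a repeat 57 of 69 had summit bases present more than once in hg38. The part that copy number in the cells or in the reference plays in these heights was not tested.

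**Figure D5:**
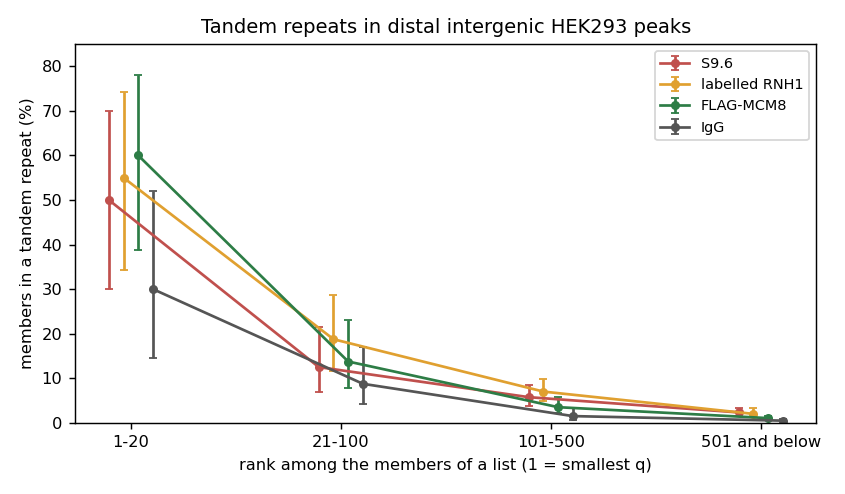
Share of distal intergenic HEK293 members that lie in a tandem repeat, in percent, by rank of the member within its list from the smallest q. Points are shares with 95% Wilson intervals from 1 library per list. All 4 lists, IgG included, fall from 30% to 60% among the 20 strongest members to 2.33% or less below rank 500.

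Merged across lists, the HEK293 members formed 9320 loci, and 143 of them were in S9.6 and the list labelled RNH1 only, 51 in these and FLAG-MCM8 but not IgG, and 40 in all 4 lists. Of the loci in 1 list 0.822% lay in a tandem repeat, of those in 2 lists 7.06%, of those in 3 lists 19.6% and of those in all 4 lists 27.5%. The strongest member of each list was at chr16:1025245-1025699, 24.5 kb from the lncRNA gene ENSG00000260496, with a fold of 22.0 in S9.6, 22.1 in the list labelled RNH1, 21.6 in FLAG-MCM8 and 15 in IgG. At chr4:3814837-3815797, 48.9 kb from ADRA2C, which encodes an adrenergic receptor, the S9.6 fold was 13.5, and it had a peak in the other 3 lists. The third in the list labelled RNH1 was at chr9:134014197-134014565, 11.1 kb from BRD3OS, with a fold of 13.2. The third in FLAG-MCM8 was at chr6:168840026-168841210, with a fold of 10.7, and the same locus was second in IgG with a fold of 7.14. The third in IgG was at chr5:1539746-1540307, with a fold of 8.36. All of these had peaks in all 4 lists.

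Loci in S9.6, the list labelled RNH1 and FLAG-MCM8 without an IgG peak were led by chr1:236097111-236097400, 12.8 kb from the pseudogene ENSG00000235371, with a fold of 18.9 in S9.6, 18.3 in the list labelled RNH1 and 15.3 in FLAG-MCM8. At chr20:49617462-49617746, 49.5 kb from PTGIS, the folds were 10.7, 10.8 and 10.7. At chr17:49192266-49193214, 16 kb from GNGT2, which encodes a G protein subunit, they were 7.38, 6.76 and 7.20. At chr22:11912035-11913180 they were 4.13, 4.09 and 5.01, and around it lay the largest cluster of S9.6 members, with 7, and of members labelled RNH1, also with 7. The largest FLAG-MCM8 cluster, with 6, lay there too. This cluster also held loci with an IgG peak, at chr22:11931243-11931856 and chr22:11935924-11936626. At chr2:239706632-239707755 the folds were 7.89, 5.58 and 7.23. Of the 51 loci of this kind 14 (27.5%) lay in tandem repeats, and 6 of the 20 strongest IgG members did, so repeats were not limited to lists made with a specific antibody.

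The strongest no-antibody members after the Gm5466 locus were at chr16:75064075-75064464, with a fold of 6.46, and at chr18:49267892-49268732, with a fold of 6.56 and a CA repeat, and neither overlapped a peak of another MEF list. The members farthest from any TSS had modest folds and mostly stood in 1 list. In MEFs they were 339 kb away at chr8:17935776-17936462 in WT, 319 kb at chr11:13842781-13843035 in KO, 327 kb at chr8:102196427-102196791 in shControl, 396 kb at chr1:114359997-114360294 in shDdx5 and 574.5 kb at chr6:20396170-20396836 without antibody. Their folds were 2.99 to 3.96. In S9.6 the farthest was 368 kb away at chr1:104664349-104664591 with a fold of 5.49. In the other HEK293 lists the farthest lay near the centromere of chromosome 1, at chr1:125123134-125123518 in the list labelled RNH1, chr1:124967371-124967689 in FLAG-MCM8 and chr1:125114017-125114417 in IgG, 3387 to 3543 kb from the TSS of LINC01691.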

How the data were processed

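The authors trimmed reads, aligned MEF reads to mm10 and HEK293 reads to hg38 with Bowtie2, and called narrow peaks per library with MACS2. The submitters' processing notes give MACS2 2.1.2, and the methods name another release. The no-antibody library was not used as input in MEFs, and whether IgG was used in HEK293 is not given in the sources used here. The HEK293 lists had been filtered after calling. The deposited values per peak are the summit fold, a ratio of pileup to local background, the −log10 p and the −log10 q, with the summit offset.

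Members were found with GENCODE M21 and 44. Peaks were shared when they had 1 bp in common. Loci are members merged across the lists of a cell type, counted in a list where any of its peaks overlapped. Pileups and relative depths were solved from fold and p and tested on simulated data, as were overlaps and the tandem repeat search. Shares have Wilson intervals, differences Newcombe intervals and ratios Poisson intervals on the log scale. Features were read from 201 bases around summits, and 31-base copies were counted in the reference. Loci named were the 3 members of each list with the highest −log10 q, the 5 strongest in all 4 S9.6 MEF lists without a no-antibody peak, the 5 strongest in S9.6, labelled RNH1 and FLAG-MCM8 without IgG, the 3 strongest in KO and shDdx5 only, and the farthest of each list. Python 3.11.15, numpy 2.4.6, pandas 2.3.3, scipy 1.17.1, numba and matplotlib were used.

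The members and lists were chosen with earlier results of these data known. The tandem repeat search, the comparison with the ribosomal contig, the q of 0.05 or lower and the removal of FLAG-MCM8 peaks with an IgG peak were chosen after seeing the data. The RNH1 library is named by its label.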

Additional observations from a re-analysis of the deposited data

Results flagged for a closer look

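The KO to WT ratio of distal intergenic peaks divided by the shDdx5 to shControl ratio was 2.42 (2.18 to 2.69), because KO had more members than WT and shDdx5 fewer than shControl. Each group had 1 library, so this interval covers counting error only. At a q of 0.05 or lower the same quotient was 0.935 (0.761 to 1.15).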

How the results depend on the processing

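Of 62 alternative values for the 7 ratios and differences, 60 kept their direction and their side of the interval. The exceptions were both for the shDdx5 to shControl ratio of members, which was 0.668 at the deposited threshold, 2.12 at a q of 0.01 or lower and 1.73 at a q of 0.05 or lower, and the cause was not tested. In HEK293 a q of 0.01 or lower left the main values unchanged, so that setting tests nothing there though it is counted among the 62. Over all alternatives the KO to WT ratio ran from 1.61 to 1.82 and the labelled RNH1 to S9.6 ratio from 0.781 to 0.816. The differences in recurrence ran from -12.7 to -7.52 points in KO, from -13.7 to -7.07 in shDdx5 and from -18.0 to -9.45 in S9.6, and the FLAG-MCM8 less IgG difference from 1.49 to 4.25. With protein-coding genes only, members were 22.1% to 47.6% of a list, and over 50 kb from a TSS 1.99% to 13.9%. At a q of 0.01 or lower they were 7.68% of the WT list, 8.29% of KO, 11.5% of shControl and 8.67% of shDdx5, AP-1 letters were in 21.8% of WT and 23.4% of KO members, and CA repeats in 36.1% of members without antibody. Read over whole peaks, AP-1 letters were in 10.8% of shControl members and 13.1% of members without antibody, the reverse of their order within 100 bases of the summit. The hg38 reference was not soft-masked, so leaving out masked peaks was not run in HEK293, and leaving out control peaks could not be applied to the control lists. No paired analysis was possible because each group held 1 library. Few fragments per peak limit what the MEF lists, and most of all the no-antibody list, can show.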
